A study of Mus musculus with 12 samples.

Results

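The histone deacetylase genes are the 10 genes *Hdac1*, *Hdac2*, *Hdac3*, *Hdac4*, *Hdac5*, *Hdac6*, *Hdac7*, *Hdac8*, *Hdac10* and *Hdac11*, chosen by name, among 15651 genes measured by RNA-seq in mouse acute myeloid leukemia (AML). They were chosen with earlier results of these data known. All 10 were listed and all 10 passed the filter on low values in each comparison. Leukemic splenocytes enriched for c-Kit, the receptor for stem cell factor, came from 3 *D/F* and 3 *T/F* mice at the moribund stage. The *D/F* genotype is Dnmt3afl/fl,Flt3ITD/ITD,Mx1Cre and the *T/F* genotype is Tet2fl/fl,Flt3ITD/ITD,Mx1Cre, so both groups, controls included, carried the *Flt3* internal tandem duplication and the interferon-inducible Mx1Cre. By the study's methods, Cre was not induced and the floxed alleles were deleted by leaky expression, so the extent of deletion rests on that leakiness. One share of each mouse's cells received CCS1477, a ligand of the bromodomains of the acetyltransferases p300 and CBP, and another its solvent DMSO, for 6 hours in medium with cytokines, so that there were 4 groups with 3 libraries each. CCS1477 was given at 4 μM to *D/F* and at 2 μM to *T/F* cells, so genotype and dose cannot be told apart in any comparison of the 2 responses. The labels give no age of the mice.

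Histone deacetylases take acetyl groups off lysines and so oppose acetyltransferases such as p300 and CBP. Of the zinc-dependent enzymes, those of class I (*Hdac1*, *Hdac2*, *Hdac3*, *Hdac8*) are mostly nuclear. Those of class IIa (*Hdac4*, *Hdac5*, *Hdac7* and *Hdac9*, the last not among the listed genes) shuttle between nucleus and cytoplasm and bind MEF2 transcription factors. Those of class IIb (*Hdac6*, *Hdac10*) are largely cytoplasmic, and *Hdac11* forms class IV. HDAC1 and HDAC2 are the catalytic subunits of the NuRD, Sin3 and CoREST corepressor complexes, and HDAC3 is that of the NCoR and SMRT complex, which is recruited by oncogenic fusion proteins in AML.

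RefSeq promoter entries on the build GRCm38.p6, taken by symbol, were used for 7 of the 10 genes, with 10 start sites in all. No window was used for *Hdac1*, *Hdac3* or *Hdac10*. Their absence does not show that RefSeq lacks entries for them, so the counts below hold for the windows used only. The 250 bases before the start site are shown for *Hdac6* and *Hdac5*, which were higher with CCS1477 in all 6 mice, and for *Hdac4*, which was lower in all 6. Each reads 5′ to 3′ on the minus strand, and capitals mark the GC box, GGGCGG or its reverse complement CCGCCC.
*Hdac6*, chrX:7947890-7948139: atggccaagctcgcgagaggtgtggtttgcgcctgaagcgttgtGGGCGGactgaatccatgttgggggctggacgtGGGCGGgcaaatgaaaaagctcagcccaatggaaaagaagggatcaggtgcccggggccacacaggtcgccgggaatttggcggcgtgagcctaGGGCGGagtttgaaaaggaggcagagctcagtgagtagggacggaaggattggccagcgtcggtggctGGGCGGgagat
*Hdac5*, chr11:102230173-102230422: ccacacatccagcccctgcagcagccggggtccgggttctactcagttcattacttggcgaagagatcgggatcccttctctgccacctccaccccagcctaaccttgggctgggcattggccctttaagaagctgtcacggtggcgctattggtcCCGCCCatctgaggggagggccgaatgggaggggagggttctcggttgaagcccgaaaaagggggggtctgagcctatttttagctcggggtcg
*Hdac4*, chr1:92180342-92180591: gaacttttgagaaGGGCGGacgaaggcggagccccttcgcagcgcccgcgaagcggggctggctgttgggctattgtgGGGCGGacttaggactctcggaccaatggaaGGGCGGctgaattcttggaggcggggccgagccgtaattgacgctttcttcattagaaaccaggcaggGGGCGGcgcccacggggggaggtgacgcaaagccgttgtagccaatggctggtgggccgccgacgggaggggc
The *Hdac6* and *Hdac4* windows each hold 4 GC boxes, and the *Hdac5* window holds 1. At least 1 GC box was found in 32.7% of the 32851 promoter windows of this length in RefSeq, and at least 4 in 4.09%. Of the 10 deacetylase windows used, 6 hold at least 1. None of the 10 holds an E-box (CACGTG, in 6.02% of all windows), a cAMP response element (TGACGTCA, in 1.55%) or an ETS motif (CCGGAAG, in 6.91%), each searched on both strands. The windows of *Hdac6* and *Hdac5* lie outside the gene model of the GENCODE vM21 annotation of the same build. That of *Hdac4* lies within it, in no exon of the gene.

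The values were deposited as TPM, a transcript abundance normalised for length and relative to all transcripts of a library. Libraries summed to between 914204 and 931697 TPM, and since TPM holds no numbers of reads, the depth of each value cannot be given. *Tet2* was lower in *T/F* than in *D/F* cells under DMSO, at 33.4 ± 3.03 against 41.2 ± 2.63 TPM (SD, n = 3), while *Dnmt3a* was 39.4 ± 14.3 TPM in *D/F* mice and 45.3 ± 7.55 TPM in *T/F* cells, so its TPM did not separate the genotypes. Under DMSO, *Kit* was listed at 50.5 TPM or more in all libraries, while 3 of 6 B cell markers were listed, summing to between 12.2 and 25.6 TPM, and 4 of 6 T cell markers, summing to between 19.6 and 48.1 TPM. Among those not listed were *Cd79a*, *Ms4a1*, *Cd3e* and *Cd3g*. Both libraries of *D/F* mouse 2 stood apart, with a correlation across genes of 0.947 to 0.958 with the libraries of their group, against 0.979 and 0.983 for the other *D/F* pairs. Its DMSO library had a summed level of 4 listed megakaryocyte markers of 212 TPM, against 34.9 and 50.3 in the other mice, and of 9 neutrophil markers of 2691 TPM, against 9468 and 6304. All 8 progenitor and blast markers had a lower mean log2 level with CCS1477 in both genotypes, and their summed level went from between 4031 and 10353 TPM to between 882 and 4338 TPM in *D/F* mice and from between 4403 and 6624 TPM to between 1756 and 3085 TPM in *T/F*. The 5 listed of 7 macrophage markers summed to between 16.5 and 23.8 TPM under DMSO and between 3.54 and 4.94 TPM with CCS1477 in *D/F*, and to between 20.4 and 33.2 and between 6.58 and 13.2 TPM in *T/F*. The 4 listed of 5 mast cell markers summed to between 117 and 262 TPM under DMSO and between 60.7 and 61.2 TPM with CCS1477 in *D/F* libraries, against 51.1 to 107 and 30.4 to 63.1 TPM in *T/F* ones. The megakaryocyte sum was 20.1 to 65.4 TPM with CCS1477 in *D/F*, where under DMSO it had been 34.9 to 212 TPM, and it was 49.4 to 56.6 TPM under DMSO and 32.7 to 35.2 TPM with CCS1477 in *T/F*. The 9 neutrophil markers summed to between 2691 and 9468 TPM under DMSO and between 1632 and 9352 TPM with CCS1477 in *D/F*. In *T/F* they summed to between 2341 and 7199 TPM under DMSO and between 2496 and 6919 TPM with CCS1477. By gene, the mean log2 level was lower with CCS1477 for all 9 in *D/F* and for 6 in *T/F*. The listed B cell markers summed to between 5.54 and 11.4 TPM with CCS1477 in *D/F*, below their DMSO range of 12.2 to 25.6 TPM. In *T/F* their sum was 18.2 to 21.7 TPM under DMSO and 12.6 to 15.9 TPM with CCS1477. The sums of the listed T cell markers and of the listed erythroid markers overlapped between the treatments in both genotypes. The part of these cell markers in the changes of the deacetylases was not tested, and in such bulk samples fewer cells of a type and less RNA per cell cannot be told apart.

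The level of the 10 genes spanned 2 orders of magnitude before treatment. Over the 6 DMSO libraries the mean was 143 ± 10.99 TPM (SD, n = 6) for *Hdac1*, above 93.3% of all genes in the table. *Hdac2* followed at 95.5 ± 3.35 TPM and *Hdac3* at 63.0 ± 4.96 TPM. These 3 class I genes stood clear of each other and of the rest, since no range of mean ± SD overlapped with the next. Among the class IIa genes, *Hdac5* (43.9 ± 7.83 TPM) and *Hdac7* (34.9 ± 7.05 TPM) did not differ beyond their spread, and *Hdac4* lay below both at 20.7 ± 1.14 TPM. *Hdac6* (13.5 ± 2.05 TPM) overlapped with *Hdac8* (11.9 ± 3.10 TPM), which overlapped with *Hdac10* (8.94 ± 3.08 TPM). *Hdac11* was lowest, at 1.32 ± 0.74 TPM, above 6.33% of all genes. Its libraries ranged from 0.453 to 2.46 TPM, so its fold changes rest on very low values.

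**Figure D1:**
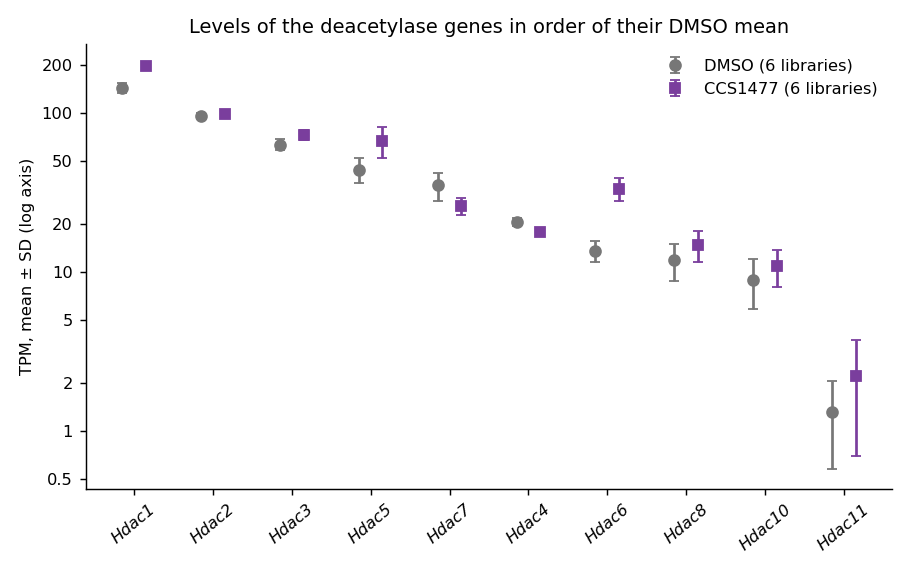
Mean TPM ± SD over 6 libraries of each treatment (log axis) for the 10 deacetylase genes, ordered from the highest to the lowest DMSO mean. *Hdac6* lay at 13.5 TPM under DMSO and at 33.1 TPM with CCS1477, above *Hdac4* and *Hdac7*, while the first 3 genes kept their order.

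The order of the levels changed with CCS1477 in the middle of the range. The highest 3 genes were again *Hdac1* (195 ± 6.49 TPM), *Hdac2* (98.2 ± 5.89 TPM) and *Hdac3* (72.7 ± 5.26 TPM), and *Hdac3* now overlapped in mean ± SD with *Hdac5* (66.5 ± 14.4 TPM). *Hdac6* moved from rank 7 to rank 5, at 33.1 ± 5.47 TPM, next to *Hdac7* at 26.0 ± 3.12 TPM, and these mean ± SD ranges overlapped. The last ranks were again held by *Hdac8*, *Hdac10* and *Hdac11*. The summed level of the 10 genes was 450 ± 7.29 TPM under DMSO and 543 ± 27.2 TPM with CCS1477 in *D/F* cells (SD, n = 3), and 424 ± 14.9 and 532 ± 14.6 TPM in *T/F* cells. Class I genes made up 71.5% of this sum under DMSO and 70.0% with CCS1477 in *D/F* mice, and 72.2% and 71.9% in *T/F*. The share of the class IIb genes went from 5.14 ± 1.32% to 8.67 ± 1.62% in *D/F* mice and from 5.12 ± 0.53% to 7.67 ± 0.49% in *T/F*.

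The effect of CCS1477 was tested in each genotype and then over both, by limma on log2(TPM + 1), and a gene was called at a Benjamini-Hochberg adjusted p under 0.05 over all genes tested. In *D/F* AML 1 of the 10 deacetylases, *Hdac6*, was called, where 11.6% of 15501 genes were (5.14% higher and 6.51% lower). In *T/F* AML 5 were called, with *Hdac1*, *Hdac3*, *Hdac5* and *Hdac6* higher and *Hdac4* lower, where 43.4% of 15256 genes were called (25.8% higher and 17.6% lower). Over both genotypes 6 were called, the same 5 and *Hdac7*, which was lower, where 45.3% of 15583 genes were called (25.8% higher and 19.6% lower). The counts of deacetylases were thus near those of genes at large, at 1 of 10 against 11.6%, 5 of 10 against 43.4% and 6 of 10 against 45.3%. The median log2 change of the 10 genes was 0.23 in *D/F*, 0.35 in *T/F* and 0.29 over both, where the median of all genes tested was 0.06, 0.07 and 0.07. With the mouse as a block, which pairs the treatments within a mouse, 4 deacetylases were called in *D/F* (39.3% of all genes), 6 in *T/F* (54.1%) and 9 over both genotypes (60.3%), all but *Hdac2*. *Hdac1*, *Hdac3*, *Hdac5*, *Hdac6* and *Hdac10* were higher with CCS1477 in 6 of 6 mice, as were 31.8% of all genes, and *Hdac4* and *Hdac7* were lower in 6 of 6 mice, as were 24.2%.

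**Figure D2:**
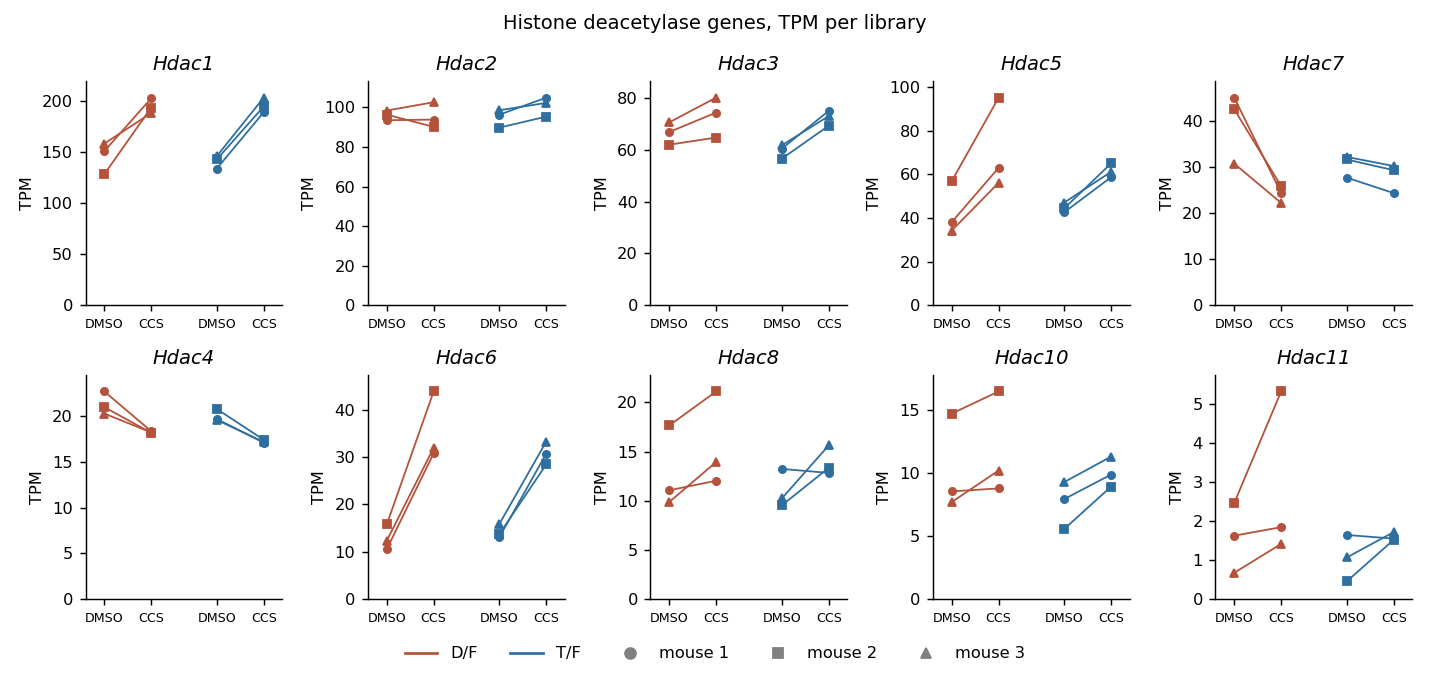
TPM of each deacetylase gene in the 12 libraries, on linear axes from 0, with a line joining the DMSO and CCS1477 (CCS) cells of 1 mouse and marker shapes for the mouse number within a genotype. The lines of *Hdac6* rise in all 6 mice, from 10.5 to 15.8 TPM up to 28.4 to 43.8 TPM, and *D/F* mouse 2 lies above the other *D/F* mice for *Hdac5*, *Hdac6*, *Hdac8*, *Hdac10* and *Hdac11* in both treatments.

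*Hdac6* had the largest change of the 10 genes in both genotypes. It encodes the class IIb deacetylase of tubulin and of other cytoplasmic proteins, and lies on chromosome X at positions 7930120 to 7947889 (minus strand, GRCm38). In *D/F* cells its level was 10.5, 15.7 and 12.3 TPM in mice 1, 2 and 3 under DMSO and 30.8, 43.8 and 31.9 TPM with CCS1477. The *T/F* values were 13.04, 13.7 and 15.8 TPM under DMSO and 30.7, 28.4 and 33.2 TPM with CCS1477. Every CCS1477 library was above every DMSO library, and non-overlap with higher values under CCS1477 was seen for 19.9% of all genes in *D/F* mice and 33.5% in *T/F*. The fold within a mouse was 2.77 ± 0.17 in *D/F* mice and 2.18 ± 0.16 in *T/F* (SD, n = 3). On the log2(TPM + 1) scale *Hdac6* rose by 1.40 (SE 0.22, adjusted p = 0.0158 by limma) in *D/F* mice and by 1.07 (SE 0.10, adjusted p = 0.000922 by limma) in *T/F*, and it ranked 246 of 15501 and 343 of 15256 genes from the largest rise. Leaving out *D/F* mouse 1 or mouse 3 ended the *D/F* call, with an adjusted p of 0.165 or 0.220 by limma, when 0 genes of the whole table were called and 2494 or 2330 had an unadjusted p under 0.05. Without *D/F* mouse 2, the one that stood apart, the change was 1.38 (adjusted p = 0.0132 by limma).

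*Hdac10*, the other class IIb gene, encodes a polyamine deacetylase and was not called in either genotype. Its level was 8.53, 14.7 and 7.69 TPM under DMSO and 8.77, 16.5 and 10.2 TPM with CCS1477 in *D/F* mice 1 to 3. The *T/F* mice had 7.92, 5.56 and 9.27 TPM under DMSO and 9.87, 8.91 and 11.3 TPM with CCS1477. Each mouse had the higher value under CCS1477 but the groups overlapped in both genotypes. The log2 change was 0.18 (95% interval -0.58 to 0.94) in *D/F* mice and 0.38 (-0.07 to 0.83) in *T/F*, and with the mouse as a block it was called in *T/F* (adjusted p = 0.0312 by limma). The ratio of *Hdac6* to *Hdac10* TPM within a library was 1.30 ± 0.27 under DMSO and 3.10 ± 0.42 with CCS1477 in *D/F* mice, and 1.94 ± 0.46 and 3.08 ± 0.12 in *T/F* (SD, n = 3). These ratios did not overlap between the treatments of a genotype. They restate the changes of the single genes, and the share of all gene pairs without such overlap was not computed.

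**Figure D3:**
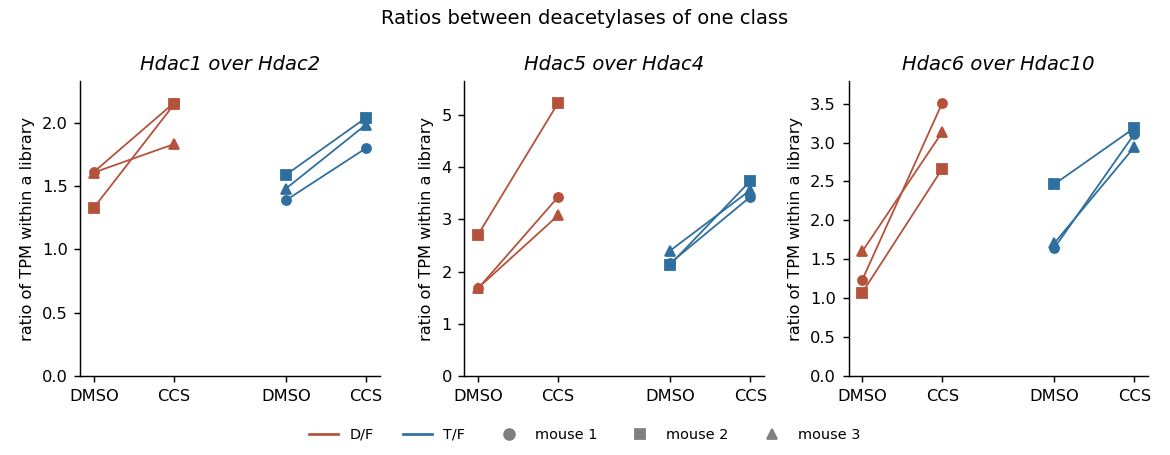
Ratio of TPM between deacetylases of the same class within each library (linear axes from 0), with lines joining the DMSO and CCS1477 (CCS) cells of a mouse. All 3 ratios are higher with CCS1477 in each of the 6 mice. They restate the folds of the single genes, and *Hdac5* over *Hdac4* had to rise, as those genes went opposite ways. *Hdac6* over *Hdac10* lay between 1.07 and 2.47 under DMSO and between 2.66 and 3.51 with CCS1477.

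The class I genes differed among themselves. *Hdac1* and *Hdac2* encode close paralogs that pair in the same nuclear complexes. *Hdac1* was 151, 128 and 158 TPM under DMSO and 202, 193 and 188 TPM with CCS1477 in *D/F* mice 1 to 3. Its *T/F* levels were 134, 143 and 146 TPM under DMSO and 189, 194 and 203 TPM with CCS1477. The treatments did not overlap in either genotype, where 19.9% of all genes in *D/F* mice and 33.5% in *T/F* were higher without overlap. The fold within a mouse was 1.35 ± 0.16 in *D/F* mice and 1.39 ± 0.02 in *T/F* (SD, n = 3). *Hdac1* rose by 0.47 on the log2 scale in *T/F* (SE 0.07, adjusted p = 0.00302 by limma), while its change of 0.42 in *D/F* (SE 0.15) was not called (adjusted p = 0.118, or 0.0421 with the mouse as a block, by limma). A processed pseudogene of *Hdac1*, Gm10093, has no row in the table, so reads shared with it cannot be told apart here.

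*Hdac2* stayed within a narrow range in all groups. Its level lay between 93.5 and 98.4 TPM under DMSO and between 90.1 and 102.6 TPM with CCS1477 in *D/F* mice, and between 89.8 and 98.6 and between 95.3 and 104.9 TPM in *T/F*. The 95% interval of its log2 change was -0.34 to 0.32 in *D/F*, -0.09 to 0.26 in *T/F* and -0.10 to 0.18 over both genotypes, and it was not called in any of them (adjusted p = 0.971, 0.365 and 0.657 by limma). The ratio of *Hdac1* to *Hdac2* within a library went from 1.61, 1.33 and 1.61 to 2.16, 2.14 and 1.83 in *D/F* mice 1 to 3 and from 1.39, 1.59 and 1.48 to 1.80, 2.04 and 1.99 in *T/F* mice 1 to 3. The lowest ratio with CCS1477 was above the highest under DMSO in both genotypes, but the share of all gene pairs for which this holds was not computed.

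*Hdac3*, the enzyme of the NCoR and SMRT complex, lies on chromosome 18 (37935844 to 37955016, minus strand, GRCm38) and was measured at 66.8, 62.0 and 70.6 TPM under DMSO and at 74.3, 64.7 and 80.1 TPM with CCS1477 in *D/F*. The level in *T/F* was 60.4, 56.5 and 61.7 TPM under DMSO and 75.0, 69.3 and 73.0 TPM with CCS1477. The treatments overlapped in *D/F* mice and did not in *T/F*, where 33.5% of all genes were higher without overlap. It rose by 0.28 on the log2 scale in *T/F* (SE 0.07, adjusted p = 0.0194 by limma), a call that was lost when libraries were rescaled to a common median (adjusted p = 0.0735) and when any 1 of the 3 mice was left out. In *D/F* its change was 0.13 (95% interval -0.24 to 0.50, adjusted p = 0.610 by limma).

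*Hdac8*, which deacetylates the cohesin subunit SMC3, was 11.1, 17.7 and 9.86 TPM under DMSO and 12.03, 21.1 and 13.9 TPM with CCS1477 in *D/F*. Among *T/F* mice it was 13.2, 9.53 and 10.2 TPM under DMSO and 12.8, 13.3 and 15.6 TPM with CCS1477, with the higher value under DMSO in mouse 1. Its log2 change was 0.27 (95% interval -0.43 to 0.97) in *D/F* mice and 0.32 (-0.02 to 0.66) in *T/F*, neither of them called. Over both genotypes *Hdac8* was called with the mouse as a block (adjusted p = 0.0226 by limma) and without *D/F* mouse 2 (adjusted p = 0.0225 by limma), against 0.158 in the unpaired fit of all mice.

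The class IIa genes moved in different directions. *Hdac5* (chromosome 11, 102194432 to 102230166, minus strand, GRCm38) encodes a repressor of MEF2 target genes. It was 38.1, 56.9 and 34.2 TPM under DMSO and 63.0, 95.1 and 56.1 TPM with CCS1477 in *D/F* mice 1 to 3. In *T/F* it was 42.6, 44.4 and 47.1 TPM under DMSO and 58.7, 65.1 and 61.1 TPM with CCS1477. The *D/F* groups overlapped through the DMSO library of mouse 2, yet the fold within a mouse was close to constant, at 1.65, 1.67 and 1.64. In *T/F* the groups did not overlap and the folds were 1.38, 1.47 and 1.30. Higher values under CCS1477 without overlap were seen for 33.5% of all genes in *T/F*. *Hdac5* rose by 0.45 on the log2 scale in *T/F* (SE 0.07, adjusted p = 0.00447 by limma). That call was lost in a shared fit of all 4 groups (adjusted p = 0.152) or without *T/F* mouse 2 (adjusted p = 0.0618, both by limma). The *Hdac5* change of 0.71 in *D/F* (SE 0.28) was not called (adjusted p = 0.146 by limma). It was called with the mouse as a block (adjusted p = 0.00855) or without *D/F* mouse 2 (0.70, adjusted p = 0.0310, both by limma).

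*Hdac4* (chromosome 1, 91928779 to 92195699, minus strand, GRCm38) encodes another repressor of MEF2 factors and was slightly lower with CCS1477 in both genotypes. It was 22.7, 21.0 and 20.3 TPM under DMSO and 18.4, 18.2 and 18.2 TPM with CCS1477 in *D/F*. The *T/F* mice showed 19.7, 20.8 and 19.6 TPM under DMSO and 17.1, 17.4 and 17.2 TPM with CCS1477. The treatments did not overlap in either genotype, and the fold within a mouse was 0.86 ± 0.05 in *D/F* mice and 0.86 ± 0.02 in *T/F* (SD, n = 3). Lower values under CCS1477 without overlap were seen for 16.7% of all genes in *D/F* mice and 22.6% in *T/F*. *Hdac4* fell by 0.20 on the log2 scale in *T/F* (SE 0.06, adjusted p = 0.0323 by limma), a call that was lost without any 1 of the 3 mice, and by 0.21 over both genotypes (SE 0.06, adjusted p = 0.0104 by limma). In *D/F* its change of -0.21 (SE 0.13) was not called (adjusted p = 0.337 by limma).

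*Hdac7* (chromosome 15, 97792664 to 97844502, minus strand, GRCm38), a class IIa gene known for its role in lymphoid and endothelial cells, had the largest difference in response between the genotypes among the 10 genes. It was 45.0, 42.5 and 30.7 TPM under DMSO and 24.3, 25.8 and 22.2 TPM with CCS1477 in *D/F* mice 1 to 3. In *T/F* it was 27.7, 31.6 and 32.2 TPM under DMSO and 24.3, 29.3 and 30.2 TPM with CCS1477. The treatments did not overlap in *D/F* mice, where 16.7% of all genes were lower without overlap. They overlapped in *T/F*, although each *T/F* mouse had the lower value with CCS1477. Its log2 change was -0.67 in *D/F* (SE 0.19, adjusted p = 0.0695, or 0.0179 with the mouse as a block, by limma) and -0.12 in *T/F* (SE 0.11, adjusted p = 0.394 by limma). *Hdac7* fell by 0.40 over both genotypes (SE 0.13, adjusted p = 0.0279 by limma), a call that was lost without *D/F* mouse 1 (adjusted p = 0.0973) or mouse 2 (adjusted p = 0.0648). The gene overlaps *Slc48a1* on the opposite strand, with 29 shared exonic bases of 6755, and *Slc48a1* went from 127 ± 11.9 to 84.5 ± 21.4 TPM in *D/F* mice and from 99.5 ± 8.21 to 71.5 ± 5.06 TPM in *T/F* (SD, n = 3). The strand setting of the counting is not given in the sources used here, and the part of that overlap was not tested.

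The balance among the listed class IIa genes shifted through these opposite changes. The ratio of *Hdac5* to *Hdac4* was 2.02 ± 0.59 under DMSO and 3.91 ± 1.16 with CCS1477 in *D/F* mice, and 2.23 ± 0.15 and 3.58 ± 0.15 in *T/F* (SD, n = 3). The ratio of *Hdac5* to *Hdac7* was 1.10 ± 0.25 and 2.93 ± 0.65 in *D/F* mice, and 1.47 ± 0.07 and 2.22 ± 0.19 in *T/F*. The summed level of *Hdac4*, *Hdac5* and *Hdac7* was 104 ± 17.6 and 114 ± 22.4 TPM in *D/F* mice and 95.2 ± 4.63 and 107 ± 6.01 TPM in *T/F*. In *D/F* the difference between these sums was smaller than the spread between mice. That spread is not the spread of the change within a mouse.

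*Hdac11*, the class IV gene, was 1.62, 2.46 and 0.672 TPM under DMSO and 1.84, 5.32 and 1.41 TPM with CCS1477 in *D/F*. Its *T/F* values were 1.64, 0.453 and 1.07 TPM under DMSO and 1.55, 1.52 and 1.72 TPM with CCS1477. The treatments overlapped in both genotypes, and the change was not called in *D/F* (0.50, 95% interval -0.54 to 1.55) or in *T/F* (0.38, -0.15 to 0.91).

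**Figure D4:**
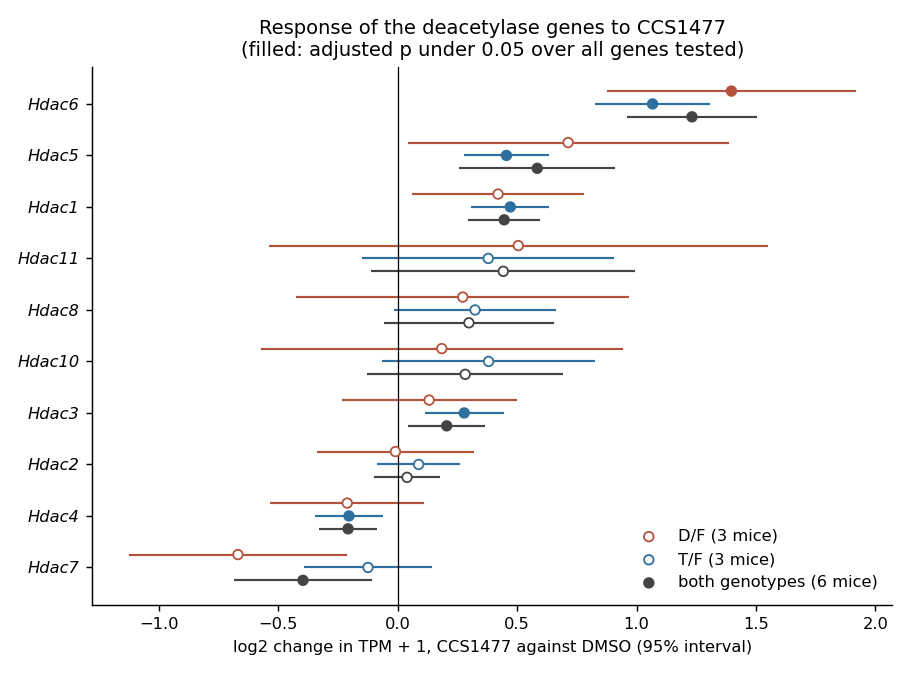
Change in log2(TPM + 1) between CCS1477 and DMSO for the 10 deacetylase genes in *D/F*, in *T/F* and over both genotypes, with 95% intervals from limma and filled points for an adjusted p under 0.05. *Hdac6* lies furthest to the right, at 1.40 and 1.07, and *Hdac7* furthest to the left in *D/F*, at -0.67.

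Whether the responses differed between the genotypes was tested as the *T/F* response minus the *D/F* response. None of the 10 deacetylases was called, a count of 0, as of 15583 genes tested by limma 0 (0.00%) were called and 659 (4.23%) had an unadjusted p under 0.05. The difference was 0.54 for *Hdac7* (95% interval 0.07 to 1.02, unadjusted p = 0.0294, adjusted p = 1.00 by limma), the 1 deacetylase under an unadjusted p of 0.05. With the mouse as a block, 2293 genes had an unadjusted p under 0.05, among them *Hdac7*, *Hdac6* and *Hdac5*, and again 0 genes were called. The difference for *Hdac6* was -0.33 (95% interval -0.86 to 0.20, or -0.56 to -0.10 with the mouse as a block) and that for *Hdac5* was -0.26 (-0.93 to 0.41, or -0.47 to -0.05). That of *Hdac4* was 0.01 (-0.25 to 0.27). As the dose was higher in *D/F*, these differences hold for genotype and dose together.

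The genotypes were also compared within a treatment. None of the 10 deacetylases was called under DMSO, where 5 of 15265 genes (0.0328%) were called and 939 (6.15%) had an unadjusted p under 0.05, or with CCS1477, where 5 of 15199 (0.0329%) were called and 1643 (10.8%) had an unadjusted p under 0.05. Under DMSO the log2 difference, *T/F* minus *D/F*, ran from -0.37 for *Hdac10* (95% interval -1.05 to 0.31) to 0.15 for *Hdac6* (-0.27 to 0.56), and the lowest adjusted p was 0.878, for *Hdac7* (by limma). With CCS1477 it ran from -0.44 for *Hdac11* (-1.30 to 0.42) to 0.20 for *Hdac7* (-0.11 to 0.51). *Hdac3* was the 1 gene of the 10 whose DMSO libraries did not overlap, at 61.7 TPM or less in *T/F* and 62.0 TPM or more in *D/F* mice, and 12.6% of all genes did not overlap. *Hdac4* was the 1 gene whose CCS1477 libraries did not overlap, at 17.4 TPM or less in *T/F* and 18.2 TPM or more in *D/F*, where 20.3% of all genes did not.

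The genes of the deacetylase complexes were described from lists chosen with earlier results of these data known. Their counts and medians are to be read beside the shares of all genes called. These were 11.6% in *D/F* (5.14% higher, 6.51% lower) and 43.4% in *T/F* (25.8% higher, 17.6% lower). With the mouse as a block they were 39.3% and 54.1%. Of the 13 Sin3 complex genes other than the deacetylases, 4 were called higher and 0 lower in *D/F* mice, and 9 higher and 1 lower in *T/F*, with a median log2 change of 0.47 and 0.43. With the mouse as a block, 8 were called in *D/F*, where 39.3% of all genes were. The 4 called in both genotypes were *Sap30l*, *Brms1l*, *Ing1* and *Ing2*. *Sap30l*, a stabilizing subunit, rose from 17.8 ± 2.79 to 36.2 ± 0.69 TPM in *D/F* mice and from 17.6 ± 0.57 to 31.8 ± 1.69 TPM in *T/F* (SD, n = 3). *Ing1*, a reader of methylated histone H3, rose from 21.0 ± 2.85 to 38.0 ± 0.79 TPM and from 20.6 ± 2.51 to 32.2 ± 0.74 TPM. *Brms1l* rose by 0.79 and 0.76, and *Ing2* by 0.61 and 0.49, on the log2 scale.

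Of the 10 CoREST complex genes, 0 were called in *D/F* at this limit and 7 were called higher in *T/F*, with medians of 0.39 and 0.38 that were close in the 2 genotypes. With the mouse as a block, 5 were called in *D/F*, near the 39.3% of all genes. *Zmym2* was 28.3 ± 4.55 and 45.6 ± 3.71 TPM in *D/F* (adjusted p = 0.0537, or 0.0120 with the block, by limma) and rose from 24.7 ± 0.61 to 38.6 ± 1.81 TPM in *T/F*, and *Rcor3* had a log2 change of 0.56 in *D/F* (adjusted p = 0.128, or 0.0194 with the block, by limma) and rose by 0.66 in *T/F*. Of the 12 NuRD complex genes, 0 were called higher and 1 lower in *D/F* mice and 4 higher and 2 lower in *T/F*, with medians of -0.39 and 0.03, and 8 were called in *D/F* with the mouse as a block. The unpaired counts of 1 and 6 of 12 were near the shares of all genes, 11.6% and 43.4%, and 8 of 12 stood beside 39.3%. *Gatad2a*, a scaffold subunit, fell from 69.5 ± 9.29 to 35.3 ± 1.99 TPM in *D/F* mice and from 68.1 ± 6.85 to 39.3 ± 2.38 TPM in *T/F*. Its paralog *Gatad2b* went the other way, with a log2 change of 0.31 in *D/F* (adjusted p = 0.195 by limma) and a rise of 0.43 in *T/F* (adjusted p = 0.00274 by limma).

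The NCoR and SMRT complex of HDAC3 had 1 of 5 genes called lower in each genotype and 0 higher, against 6.51% of all genes called lower for *D/F* cells, 17.6% for *T/F* cells. *Tbl1xr1*, which exchanges corepressors for coactivators, fell from 72.8 ± 2.88 to 27.9 ± 3.30 TPM in *D/F* mice and from 71.5 ± 0.57 to 42.9 ± 2.00 TPM in *T/F* (SD, n = 3). *Tbl1x*, its paralog, had a log2 change of -0.52 in *D/F* mice and -0.15 in *T/F* and was not called in either, other than in *D/F* with the mouse as a block (adjusted p = 0.0195 by limma), where 2 genes of the list were called. Of the 3 genes of the mitotic deacetylase complex, *Trerf1* fell by 1.12 in *D/F* mice and had a change of -0.35 in *T/F* (adjusted p = 0.144, or 0.0191 with the block, by limma), and *Dnttip1* rose by 0.40 in *T/F* and had a change of 0.30 in *D/F* (adjusted p = 0.193, or 0.0496 with the block, by limma). With the mouse as a block 2 of these genes were called in each genotype.

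**Figure D5:**
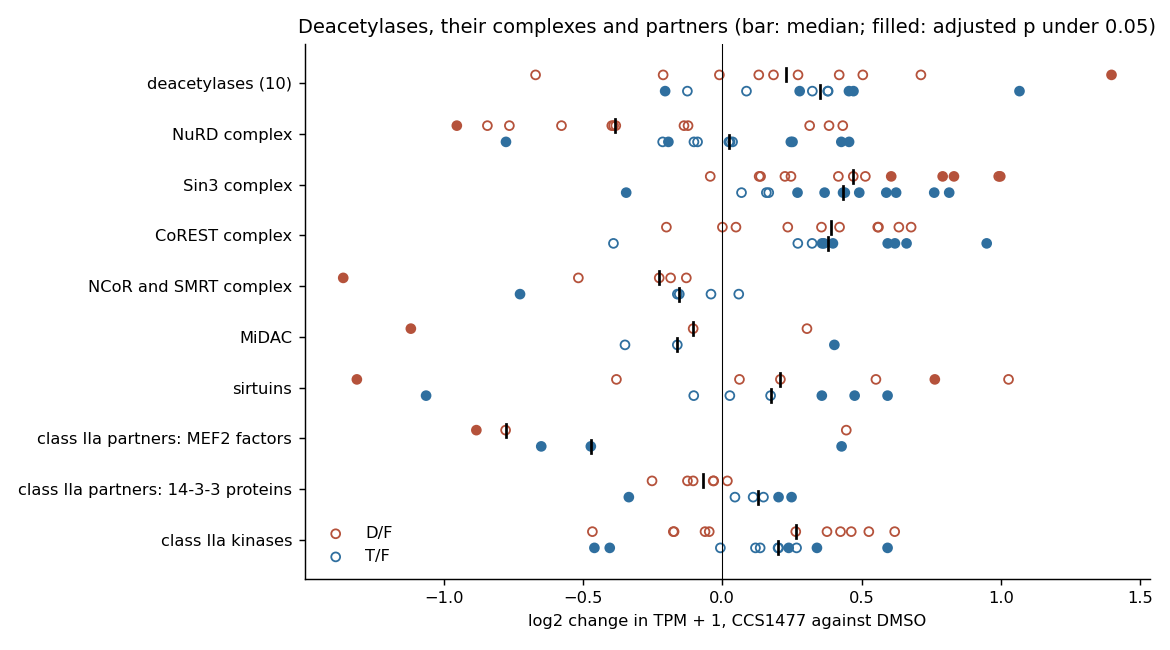
Change in log2(TPM + 1) between CCS1477 and DMSO for each gene tested of the deacetylase list and of 9 lists of complexes and partners, in *D/F* mice and *T/F*, with a black bar at each list's median and filled points for an adjusted p under 0.05 (MiDAC, mitotic deacetylase complex). The medians of the Sin3 list lie at 0.47 and 0.43 and those of the NCoR and SMRT list at -0.23 and -0.15.

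The class IIa proteins are held in the cytoplasm by 14-3-3 proteins after phosphorylation and repress MEF2 factors in the nucleus. Of the 3 MEF2 genes tested, 1 was called lower in *D/F* mice, and 1 higher and 2 lower in *T/F*. *Mef2d* fell from 103 ± 16.4 to 55.6 ± 11.2 TPM in *D/F* mice and from 96.7 ± 0.90 to 61.6 ± 7.27 TPM in *T/F* (SD, n = 3), while *Mef2a* was 36.4 ± 9.25 and 49.1 ± 3.19 TPM in *D/F* (adjusted p = 0.200 by limma) and rose from 37.9 ± 2.95 to 51.2 ± 2.32 TPM in *T/F*. Of the 6 genes for 14-3-3 proteins, 0 were called in *D/F* mice, and 2 higher and 1 lower in *T/F*, where *Ywhag* fell by 0.34 and *Ywhae* rose by 0.20. Of the 11 kinase genes tested, 0 were called in *D/F* mice, and 3 higher and 2 lower in *T/F*, where *Prkd3* rose by 0.59 and *Mark3* by 0.34. In *D/F* the change was 0.38 for *Prkd3* and 0.46 for *Mark3* (adjusted p = 0.261 and 0.0939 by limma). With the mouse as a block, 4 kinase genes were called in *D/F*, among them *Mark3* (adjusted p = 0.0196 by limma). The kinase counts were near the shares of all genes, at 5 of 11 against 43.4% in *T/F*, and at 4 of 11 against 39.3% with the block in *D/F*. For the few MEF2 and 14-3-3 genes the same shares apply, 11.6% called in *D/F* against 43.4% in *T/F*.

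The sirtuins, deacetylases that use NAD in place of zinc, had 1 gene called higher and 1 lower of 7 in *D/F* mice, and 3 higher and 1 lower in *T/F*, and with the mouse as a block 4 were called in *D/F*. Of all genes, 11.6%, 43.4% and 39.3% were called in these fits. *Sirt3*, a mitochondrial deacetylase, fell from 44.1 ± 13.3 to 16.8 ± 3.36 TPM in *D/F* mice and from 34.8 ± 6.51 to 16.2 ± 3.76 TPM in *T/F* (SD, n = 3). *Sirt1*, a nuclear one, rose from 51.8 ± 7.60 to 88.1 ± 6.35 TPM and from 52.2 ± 1.28 to 73.0 ± 2.53 TPM.

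Among 11603 genes whose mean reached 5 TPM, the 3 whose log2(TPM + 1) was most like that of *Hdac6*, the deacetylase with the lowest adjusted p over both genotypes, were *Trim62* (Pearson's r 0.992), *Ap3m2* (0.990) and *Trim26* (0.990) across the 12 libraries. These libraries share their mice and the split between treatments, so r describes the treatment and the mice together. *Trim26* went from 21.7 to 67.4 TPM in *D/F* mice and from 24.9 to 62.7 TPM in *T/F*, as group means.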

How the data were processed

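RNA-seq was analysed for c-Kit+ leukemic splenocytes of 3 *D/F* and 3 *T/F* mice, each treated with CCS1477 or DMSO, with groups taken from the sample labels. The authors deposited linear TPM per Ensembl gene, not pooled; kallisto and mm10 are named in the submitters' processing notes, and the methods name AltAnalyze. The labels name both ribosomal RNA depletion and an mRNA library kit. Each gene reaches 2.00 TPM in at least 1 library, so lower genes had been left out. TPM keeps no depth, so no counting interval is given, and precision is the spread between mice.

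On log2(TPM + 1), limma 3.58.1 (R 4.3.3, eBayes with no trend, two-sided tests) was fitted to genes whose mean reached 1 TPM in a group compared. Benjamini-Hochberg adjustment ran over all genes tested, and calls were made under an adjusted p of 0.05, whatever the fold change. A log2 change on this scale understates that of low genes. For 3 against 3 samples no exact two-sided permutation test can fall under 0.05, so none was used there. That limit does not hold for the mice of both genotypes together, for which none was run either. The members and lists were chosen with earlier results of these data known. Beyond the 10 genes, up to 4 genes of each list were named that were called in both genotypes in the same direction, or otherwise the 2 of lowest adjusted p over both genotypes, and the 3 genes most correlated with the deacetylase of lowest adjusted p over both genotypes. Positions are from GENCODE vM21 (GRCm38).

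The CCS1477 and DMSO cells of a replicate number are from 1 mouse by the labels. The deviations from the group means, over genes, correlated within a mouse at 0.523, 0.650 and 0.528 for *D/F* and at 0.366, 0.337 and 0.473 for *T/F*. Between mice they correlated at -0.485 to 0.130. Deviations from a group mean offset each other within the group, so the values between mice are not independent of those within a mouse. The pairing rests on the labels. The alternatives were a pseudocount of 0.1, no filter, rescaling to a common median, a shared fit of all groups, the mouse as a block and leaving out each mouse.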

Additional observations from a re-analysis of the deposited data

How the results depend on the processing

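The count of genes called in *D/F* depended most on the processing, as it was 1805 in the unpaired fit, 6098 with the mouse as a replicate block, 4940 in a shared fit of 4 groups and between 0 and 3739 with a mouse left out (0 without mouse 1 or mouse 3). That in *T/F* was 6620, 3713 in the shared fit and between 3192 and 5122 with a mouse left out. The genotype comparison gave 5 genes under DMSO, 20 in the shared fit and between 4 and 9 with a mouse left out, and 5, 71 and between 2 and 27 with CCS1477. The lowest counts were without a *T/F* mouse in both treatments, and the highest with CCS1477 was without *D/F* mouse 2.

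*Hdac6* kept its call in *T/F* and over both genotypes under all alternatives run, and in *D/F* under all but the loss of mouse 1 or mouse 3. In *D/F* the shared fit added *Hdac1*, *Hdac5* and *Hdac7*, and rescaling added *Hdac7* (adjusted p = 0.0407 by limma). In *T/F* the shared fit left 2 deacetylases called and leaving out a mouse left 2 or 3. The shared fit ended the calls of *Hdac5*, *Hdac4* and *Hdac3* (adjusted p = 0.152, 0.0958 and 0.0766 by limma). *Hdac5* also lost its call without mouse 2 (adjusted p = 0.0618 by limma). Over both genotypes *Hdac3* lost its call when rescaled (adjusted p = 0.321 by limma) or without 1 of 5 mice, and *Hdac4* without *T/F* mouse 2 (adjusted p = 0.0517 by limma). The mouse as a block changed no call of the genes named in the 2 responses beyond those given above. The cause of these changes was not tested.

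When libraries were rescaled, the log2 change of *Hdac2* over both genotypes was -0.0242, the difference between responses of *Hdac4* was -0.0290, and the genotype difference was 0.0012 for *Hdac1* and 0.0265 for *Hdac2* under DMSO and 0.0101 for *Hdac3* with CCS1477. With a mouse left out, *Hdac2* ranged from -0.0450 to 0.0324 in *D/F*. The difference between responses ranged from -0.0348 to 0.136 for *Hdac1*, from -0.0328 to 0.0399 for *Hdac4*, from -0.0700 to 0.234 for *Hdac8* and from -0.333 to 0.0897 for *Hdac11*. The genotype difference under DMSO ranged from -0.133 to 0.0174 for *Hdac1*, from -0.0466 to 0.0202 for *Hdac2*, from -0.0588 to 0.299 for *Hdac5* and from -0.335 to 0.0552 for *Hdac8*. With CCS1477 it ranged from -0.0208 to 0.0357 for *Hdac1*, from -0.0915 to 0.0605 for *Hdac3*, from -0.326 to 0.0502 for *Hdac5*, from -0.288 to 0.0933 for *Hdac8* and from -0.347 to 0.0715 for *Hdac10*.

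The depth of the libraries is unknown, which limits *Hdac11* most, at under 1 TPM in 2 DMSO libraries. Its 95% interval in *D/F* ran from -0.54 to 1.55.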

Other observations

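*Hdac9*, a class IIa gene (chromosome 12, 34047580 to 34917095, minus strand, GRCm38), is in the table but was not among the 10 genes, and was chosen for mention after its values were seen. Its level was 1.96, 3.14 and 3.10 TPM under DMSO and 0.251, 0.302 and 0.344 TPM with CCS1477 in *D/F* mice 1 to 3. In *T/F* it was 2.58, 2.31 and 2.73 TPM under DMSO and 0.459, 0.532 and 0.529 TPM with CCS1477. The treatments did not overlap in either genotype, where 16.7% of all genes in *D/F* mice and 22.6% in *T/F* were lower without overlap. The fold within a mouse was 0.11 ± 0.02 in *D/F* mice and 0.20 ± 0.03 in *T/F* (SD, n = 3). As *Hdac9* passed the filter on low values only through its DMSO level and was picked for its values, no test is given for it. Of the class IIa genes in the table, *Hdac4*, *Hdac7* and *Hdac9* were thus lower and *Hdac5* was higher with CCS1477 in all 6 mice. Of all genes, 24.2% were lower and 31.8% were higher in all 6 mice.

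The libraries of *D/F* mouse 2 were the highest of their group for *Hdac5*, *Hdac6*, *Hdac8*, *Hdac10* and *Hdac11* in both treatments and the lowest for *Hdac3* in both. Its megakaryocyte and neutrophil sums are given above. Its 8 progenitor and blast markers summed to 4031 TPM under DMSO, against 10353 and 8050 in *D/F* mice 1 and 3. With CCS1477 they summed to 882 TPM, against 4338 and 3206. Its DMSO sums of listed mast cell, T cell, B cell and erythroid markers (262, 48.1, 25.6 and 16.9 TPM) were the highest of the *D/F* mice. The part of these markers in the levels of the deacetylases was not tested.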
